A study of Schizosaccharomyces pombe with 3 samples.

Results

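The Schizosaccharomyces pombe array carried 19 intergenic features named for a tRNA gene, chosen as every feature whose name starts with IGR-tRNA, of 10197 named genomic features in all. Each amino acid with a feature had 1, glutamine had none, and each feature was printed as 2 spots per array. Cells with Tup12 fused to GFP grew in rich YES medium to mid-log phase; the samples were 3 arrays from separate experiments, replicates 1 to 3 of a single group. DNA recovered with an antibody against GFP (Cy5) was hybridised beside input DNA (Cy3) on every array, with no dye swap. Arrays of untagged cells were not analysed here, so a signal from the antibody alone cannot be told apart from one of Tup12. The values given are immunoprecipitate over input on a log2 scale, set so that the median of an array is 0, errors are SDs over n = 3 arrays, and "enriched" or "depleted" means a mean above or below 0 with an adjusted p under 0.05 in limma over all 5462 features measured on all 3 arrays. Nothing states that the experiments were separate cultures, and if they were not, p-values measure only the spread between arrays.

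tRNA genes are transcribed by RNA polymerase III. The factor TFIIIC reads internal promoter boxes, the A box and the B box, within the gene itself, and TFIIIB, placed upstream by TFIIIC, recruits the polymerase. In fission yeast, runs of tRNA genes flank centromeres and act there as barriers between heterochromatin and neighbouring chromatin. Tup12, a relative of the budding yeast corepressor Tup1, works with Ssn6 and is brought to DNA by other proteins.

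All 19 names matched a single tRNA gene in the RefSeq annotation of assembly ASM294v3 by amino acid, anticodon, length and position. Positions in the 11 names of chromosome III equalled those of the assembly, while those of the 8 on chromosome I differed by a shared 29762 or 29763 bp, so the array used another version of that chromosome. The coordinates here are those of the matched genes in ASM294v3. The sources used here do not give the stretch that was amplified and spotted, and a hybridising fragment can reach past the gene. The sequences below are the matched genes of the 3 enriched features that lead in ratio or in immunoprecipitate signal (Tyr, Gly and His), of the single gene without the motif (Ala) and of the 3 measured features that were not called (Met, Asp and Asn). Letters run from 5′ to 3′ on the gene's strand, as in RefSeq ASM294v3, and capitals mark the match to the B box motif GNTCNANNC.
tRNA-Tyr (chrI:1746464-1746547, plus strand): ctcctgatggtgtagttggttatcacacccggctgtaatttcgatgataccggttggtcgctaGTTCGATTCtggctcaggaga
tRNA-Gly (chrIII:113716-113786, minus strand): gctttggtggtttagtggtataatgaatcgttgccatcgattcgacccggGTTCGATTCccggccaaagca
tRNA-His (chrIII:71400-71471, plus strand): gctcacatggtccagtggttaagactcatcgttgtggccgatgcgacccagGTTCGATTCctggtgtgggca
tRNA-Ala (chrIII:1065044-1065117, minus strand): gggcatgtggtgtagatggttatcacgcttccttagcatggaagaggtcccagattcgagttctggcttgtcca
tRNA-Met (chrI:1096474-1096545, plus strand): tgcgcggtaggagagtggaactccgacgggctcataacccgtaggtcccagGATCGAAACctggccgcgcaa
tRNA-Asp (chrIII:1068029-1068099, plus strand): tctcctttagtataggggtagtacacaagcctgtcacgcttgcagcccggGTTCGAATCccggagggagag
tRNA-Asn (chrIII:947262-947335, plus strand): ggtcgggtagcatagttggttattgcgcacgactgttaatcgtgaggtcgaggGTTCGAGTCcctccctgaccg

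The motif was found on the gene's strand in 18 of the 19 genes, in 10 of the 11 that gave a ratio on all arrays, and in 93.6% of the 171 nuclear tRNA genes. On the opposite strand, 25.1% of those 171 genes held it; the motif does not overlap another searched here. Enriched features and features that were not called both held it, as the letters of Tyr and of Met, Asp and Asn show, and the Ala gene, whose letters do not match, belonged to an enriched feature. Gene lengths were 71 to 84 bp (median 73), and the Lys and Tyr genes have an intron. Of the 19 genes, 5 (Arg, Cys, Pro, Tyr and Val) have a sequence found nowhere else among nuclear tRNA genes. The other 14 have identical copies elsewhere, up to 9 genes in all for Ala, so their spots can also capture DNA from those copies. Only exact matches of the whole gene were counted, so capture of DNA from similar genes was not judged for any of the 19.

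Only part of these features gave a ratio, and the missing values were mostly rejected input spots. Input spots were accepted for 21, 23 and 21 of the 38 tRNA-named spots on replicates 1, 2 and 3 (55.3%, 60.5% and 55.3%), against 52.0%, 59.6% and 54.4% of spots of other intergenic features. Immunoprecipitate spots were accepted for 35, 34 and 33 of the 38. The accepted share of input was therefore close to that of intergenic features as a class on each array. It was 73.4%, 76.5% and 70.6% for open reading frames (ORFs).

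A ratio on all 3 arrays was available for 11 tRNA-named features, and 9 of these had all 6 input spots accepted; Gly had 5 and Glu 4. Pro and Val had a single accepted input spot each, on replicate 2, with ratios of 0.73 and 2.11 that were not tested. Arg, Ile, Leu, Ser, Thr and Trp had no accepted input spot on any array, and thus no ratio; the name of the Thr feature ends in "Missing". The Ile feature is the clearest case, with 6 immunoprecipitate spots accepted and none in input, as in the plot of accepted spots. Its immunoprecipitate signal was 1490, 2108.5 and 1922 per pixel, above 89.0%, 96.6% and 90.9% of accepted negative control spots on replicates 1 to 3. Counts below describe the 11 measured features, not all 19.

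**Figure D1:**
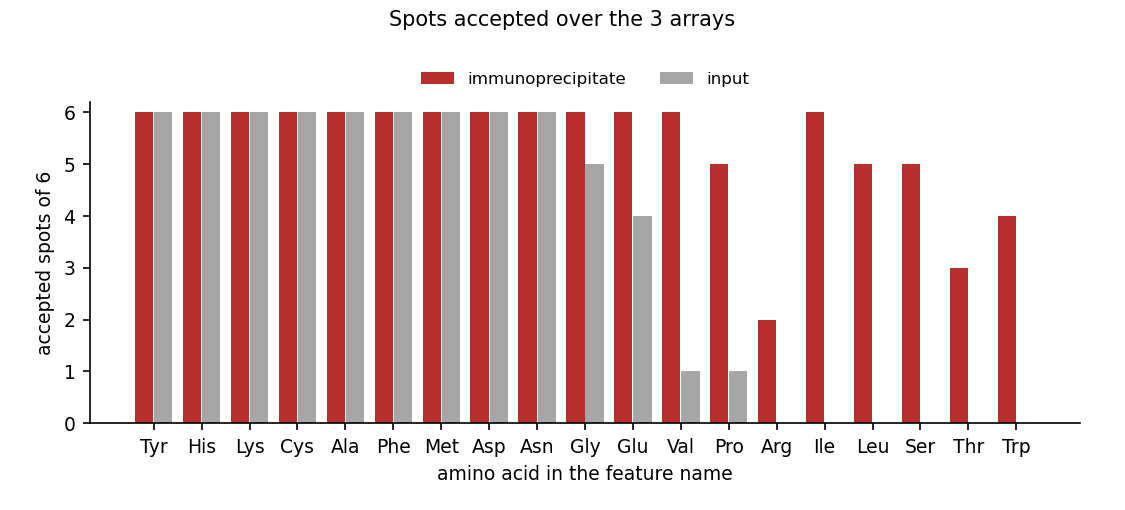
Number of spots accepted over the 3 arrays (of 6) in the immunoprecipitate channel (red) and the input channel (grey) for each of the 19 features, named by amino acid. Of the 19 features, 11 had input on all arrays, Val and Pro had 1 accepted input spot each, and the last 6 had none.

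Of the 11 measured features, 8 were enriched and none was depleted. The same limma test, with Benjamini-Hochberg adjustment over the whole array, called 22.1% of all features enriched and 26.1% depleted, and 42% of other intergenic features enriched and 7.81% depleted. The count depended on the filter on flags and on the values used. Without the filter 5 of 19 were enriched. Of the 8, only Tyr and Gly kept the call there, and the rest of the 5 were features without a ratio on all arrays. In the authors' deposited single-channel values, which are not ratios over input, 3 of 12 were called above the array median and 1 below. Ala, Cys, Glu and Lys were called in neither, and Lys was at -0.82 in the deposited values; Tyr was called in both. The means over arrays of all 11 lay above 0, as did 71.2% of the 2228 other intergenic features. Their median was 1.52, against 0.50 for other intergenic features, -0.49 for ORFs and -0.13 over all features.

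The Tyr feature had the highest ratio, at 3.14, 2.87 and 3.27 on replicates 1, 2 and 3, a mean of 3.09 ± 0.20 (adjusted p = 1.4e-09). This is 8.53 times the array median on the linear scale, and above 98.0% of other intergenic features. Tyr was the highest of the 11 on replicates 1 and 3, and second to Gly on replicate 2.

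Gly had 1.53, 2.99 and 2.40, a mean of 2.30 ± 0.73 (adjusted p = 6.7e-07), with the largest spread of the 11. The Glu feature had 2.08, 1.21 and 2.29, a mean of 1.86 ± 0.57 (adjusted p = 9.0e-06). Both are the features with fewer than 6 accepted input spots, and their arrays overlapped with those of the next features in order.

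His had 1.80, 1.83 and 1.36, a mean of 1.66 ± 0.26 (adjusted p = 2.3e-05). The Lys feature had 1.17, 1.79 and 1.78, a mean of 1.58 ± 0.35 (adjusted p = 4.7e-05). Cys had 1.31, 1.75 and 1.48, a mean of 1.52 ± 0.22 (adjusted p = 6.7e-05). These features, with Ala after them, overlapped fully, and no order can be read among them. Ala had 1.61, 1.34 and 1.55, a mean of 1.50 ± 0.14 and the smallest spread of the 11 (adjusted p = 7.1e-05). Phe was the lowest of the enriched features, with 1.00, 1.11 and 1.60, a mean of 1.24 ± 0.32 (adjusted p = 6.6e-04).

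The other 3 measured features did not pass the test. Met, whose gene is annotated as the initiator tRNA, had 0.52, 0.08 and 1.45, a mean of 0.68 ± 0.70 (adjusted p = 0.057). Its replicate 3 lay as high as the enriched features and its replicate 2 near 0; without replicate 2 the mean was 0.98 and the call was made (adjusted p = 0.016). Asp had 0.97, 0.66 and -0.09, a mean of 0.51 ± 0.54 (adjusted p = 0.14). Asn had 0.57, 0.60 and 0.03, a mean of 0.40 ± 0.32 (adjusted p = 0.24). Asp and Asn were lowest on replicate 3, the array on which Met was highest, and their means were near the median of other intergenic features, as in the plot of ratios by amino acid. The spread over arrays was typical of the platform, with a median SD of 0.32 for the 11, against 0.41 over all features.

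**Figure D2:**
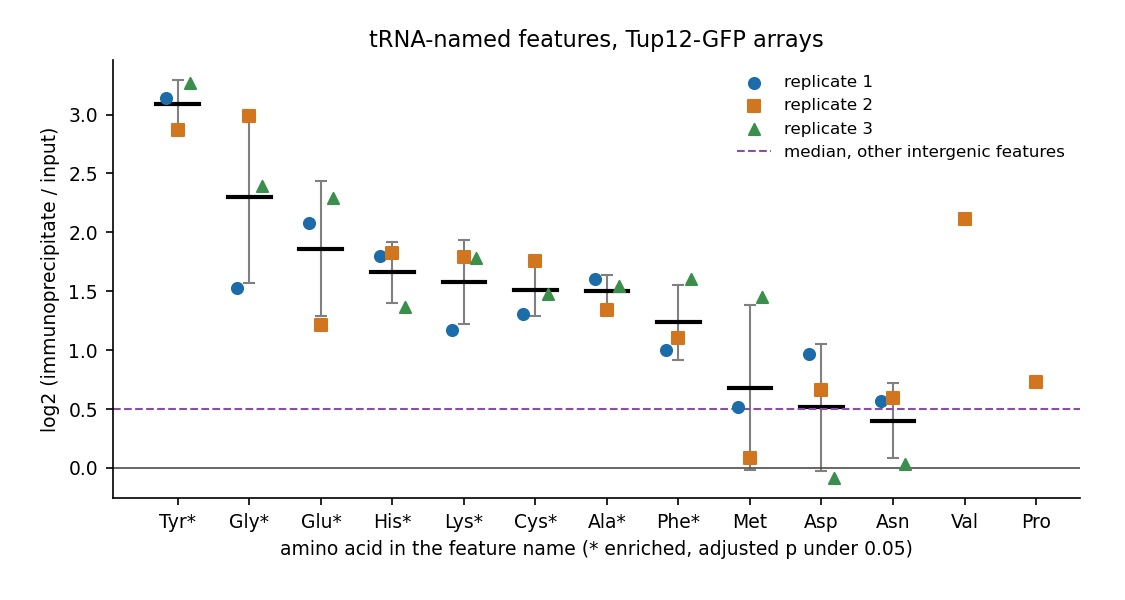
Log2 ratio of immunoprecipitate over input (vertical axis) for the 13 features with any value, named by amino acid, on each array (points), with the mean and SD (bars) where all 3 arrays gave a value and the median of other intergenic features (0.50, dashed line). Tyr stands at 3.09 ± 0.20, 7 more features are enriched, Met, Asp and Asn lie near the dashed line, and Val and Pro have replicate 2 only.

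Repeat spots on the same array differed by a median of 0.28, 0.30 and 0.09 on replicates 1, 2 and 3 over 10 pairs each. Gly had a single accepted input spot on replicate 2 and Glu on replicates 1 and 3, so their spot error there is not known. The largest gaps between repeat spots were 0.53 (Gly, replicate 1), 0.66 (Cys, replicate 2) and 0.27 (Met, replicate 3). Across the 11 features, ratios correlated between arrays at Pearson r = 0.73 for replicates 1 and 2, 0.77 for 1 and 3 and 0.72 for 2 and 3, a description over features that share the same 3 arrays. The number of identical gene copies and the ratio had a Pearson r of -0.23 over the 11.

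On every array the median of the 11 tRNA-named features was higher than that of other intergenic features, by 0.78, 0.77 and 1.08 on replicates 1, 2 and 3. The mean was 1.40 ± 0.13 for the tRNA-named features and 0.52 ± 0.05 for other intergenic features, a difference of 0.88 ± 0.17. When each feature was set against other intergenic features in the same of 10 equal bins of input signal, the difference was 0.57, 0.22 and 0.75, with a mean of 0.51 ± 0.27. In that comparison 3, 5 and 4 of the 11 lay in the lowest bin of input on replicates 1 to 3. The difference thus kept its direction on each array and was smaller at equal input signal.

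The 2 channels did not contribute alike. Immunoprecipitate signal of spots accepted in both channels had a median of 1353, 1188 and 1909 per pixel for tRNA-named features, against 1309, 1229.5 and 1475 for other intergenic features. That is a log2 difference of 0.12 ± 0.22, which is within its spread over arrays; it was -0.00092 without replicate 3. Input signal had a median of 423, 609 and 598 for tRNA-named features, against 733, 1134.5 and 993 for other intergenic features, a log2 difference of -0.81 ± 0.08. The higher ratios of the class thus stood beside lower input signal on every array, whereas immunoprecipitate signal was higher on replicates 1 and 3 and lower on replicate 2, as the plot of both channels shows. Over the 11, the mean ratio and the mean log2 input had a Pearson r of -0.65 and a Spearman rho of -0.53, and the ratio and the log2 immunoprecipitate had 0.47 and 0.49; the ratio contains both, so these are descriptions. At equal input signal the difference in ratio was 0.51 ± 0.27, as given above.

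**Figure D3:**
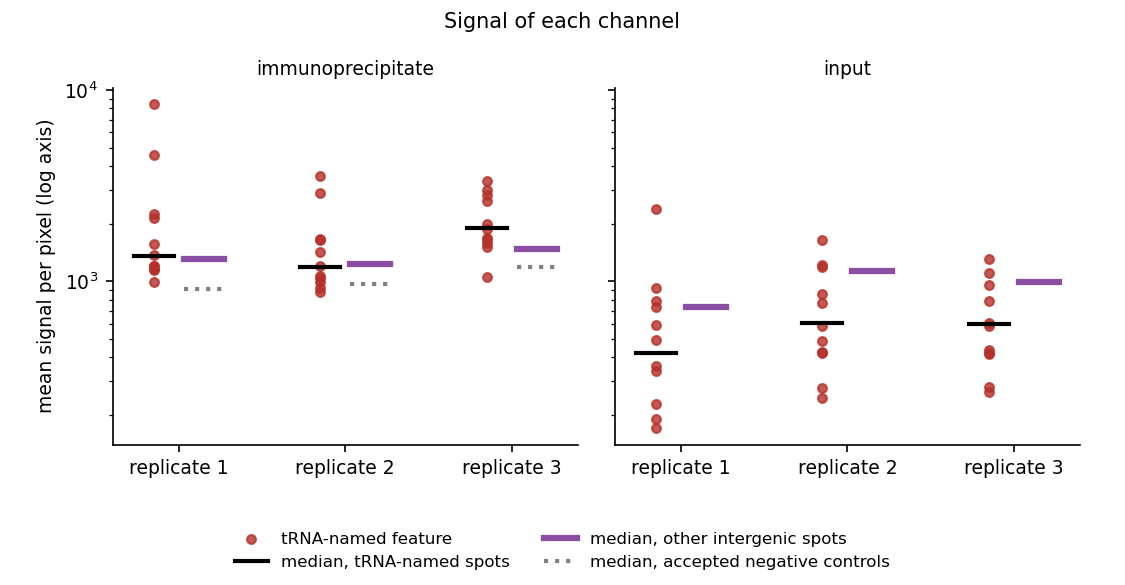
Mean signal per pixel (log axis) of the immunoprecipitate channel (left) and the input channel (right) on each array for the 11 tRNA-named features (points). Lines are medians over spots of tRNA-named features (black), other intergenic features (purple) and, on the left only, accepted negative controls (dotted). Input medians of tRNA-named features are 423, 609 and 598, against 733, 1134.5 and 993 for other intergenic features; immunoprecipitate medians are closer together.

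Negative control spots (empty positions, buffer and Escherichia coli DNA) were accepted in the immunoprecipitate channel in 41.9%, 49.4% and 45.0% of cases on replicates 1 to 3, but in the input channel in 1.86%, 1.86% and 1.60%. Their accepted immunoprecipitate spots had medians of 912, 963.5 and 1191.5 per pixel. Among the 11 features, 3 were above 90% of these control spots on every array, namely Tyr, His and Phe. Tyr had an immunoprecipitate signal of 2147.5, 1667 and 3003.5 per pixel over an input of 170.5, 277 and 264. His had 4566.5, 3529 and 3344 over an input of 918.5, 1221 and 1103.5, and Phe had 2256.5, 2891.5 and 2826 over 788, 1644.5 and 791.5.

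These 3 features were bright in the immunoprecipitate on every array. In input, His lay above the median of other intergenic features (733, 1134.5 and 993) on every array, and Phe on replicates 1 and 2. Tyr, with the higher mean ratio, lay far below that median on every array. In contrast, 3 features, Ala, Asp and Glu, fell below the control median on 1 array each. Ala had 993, 877.5 and 1513.5 per pixel, above 60.8%, 35.6% and 76.4% of control spots, over an input of 228.5, 427.5 and 440. Its ratio had the smallest spread of the 11, while its immunoprecipitate signal was below the control median on replicate 2 and above it on replicates 1 and 3. Glu had 1145.5, 924.5 and 1638 over 192, 485.5 and 279, and was above 74.1%, 44.3% and 82.8% of control spots. Gly, with 8440.5, 1431 and 2617 over 2393, 246 and 422, was far brighter on replicate 1 in both channels.

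The labels describe a binding list of features whose spots have a median percentile rank of 85 or more over the arrays. The list was recomputed here from the ratios given above, for features measured on all arrays. Of the 11, 7 were on this recomputed list, namely Tyr, Gly, Glu, His, Lys, Cys and Ala, against 12.6% of all features and 25% of other intergenic features. Tyr ranked highest, at a median percentile of 99.1, and Gly had 97.0. Phe lay just below the limit at 84.8, and Cys was the lowest of those on the list at 89.9. With ranks taken only among spots of features measured on all arrays, an alternative chosen after seeing the data, Phe reached 86.0 and 8 of the 11 were on the list, beside 739 features in all, against 687 with every accepted spot ranked.

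Neighbouring features were looked up by position after the values of the tRNA-named features had been seen. The Tyr gene (SPATRNATYR.01) overlaps by 80 bp the 3′ end of dal81, which lies on the opposite strand, outside its coding sequence. dal81 shares its name with a budding yeast activator of genes for nitrogen use. Both of its features were enriched as well. The intergenic feature named for it, at the far end of that gene, had 3.13, 3.04 and 3.04, a mean of 3.07 ± 0.05 (limma adjusted p = 1.4e-09). Its ORF had 2.50, 2.05 and 2.13, a mean of 2.23 ± 0.24 (adjusted p = 3.8e-07). ank1, the nearest gene on the other side, 826 bp away, had 0.96 ± 0.51 in its intergenic feature and 0.98 ± 0.57 in its ORF, both enriched (adjusted p = 0.0069 and 0.0065). Beyond dal81, 3351 bp from the Tyr gene, lies pex6. The pex6 intergenic feature had 2.52 and 1.96 on replicates 2 and 3, and its ORF had 1.18 and 0.12 on replicates 1 and 2. The highest tRNA-named ratio thus lay among enriched features on both sides, and whether signal there comes from the tRNA gene or from dal81 cannot be told apart at this spacing.

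His (SPCTRNAHIS.03) lies 131 bp from SPCC757.11C and 1404 bp from aah1. The intergenic feature of SPCC757.11C had 1.86 and 1.58 on replicates 1 and 2 and no value on replicate 3, and that of aah1 had 0.65 ± 0.11 (adjusted p = 0.052), while the aah1 ORF was enriched at 1.25 ± 0.66. Cys (SPATRNACYS.02) lies between gly1, which encodes a threonine aldolase, and ssr2, a subunit of chromatin remodelling complexes; the ssr2 intergenic feature had 0.37, 1.55 and 0.21, a mean of 0.71 ± 0.73 (adjusted p = 0.049), and the gly1 ORF was depleted at -0.92 ± 0.02. The means of His and Cys were higher than those of all their neighbours measured on all arrays, but not on every array. On replicate 1 the SPCC757.11C intergenic feature (1.86) lay above His (1.80). On replicate 3 the aah1 ORF (2.01) lay above His, and the ssr2 ORF, with a value on that array only, had 3.65, above the 1.48 of Cys.

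Lys (SPATRNALYS.04) was higher than each measured neighbour on every array. It lies between cdr1, which encodes a kinase that acts on Wee1, and bcs1, an assembly factor of a mitochondrial respiratory complex. The cdr1 intergenic feature, whose region holds this tRNA gene, had -0.55, -1.02 and 0.28, a mean of -0.43 ± 0.66 (adjusted p = 0.23), and the feature named for its long intergenic region had 0.50 ± 0.17. The ORFs of cdr1 and bcs1 were depleted, at -0.73 ± 0.61 and -1.08 ± 0.62. Phe (SPCTRNAPHE.04) lies between cbf11, which encodes a CSL-type transcription factor, and mrps8, and the mrps8 ORF was depleted at -0.80 ± 0.36. The cbf11 intergenic feature had 0.95 on replicate 2 only, where Phe had 1.11. That of mrps8 had 0.80 on replicate 1 only, where Phe had 1.00. Asn (SPCTRNAASN.05), which was not called, lies in the region of the opy1 intergenic feature, which had 0.05, -0.07 and -0.20, a mean of -0.07 ± 0.12. The Asn, Cys, Ile and Met genes each lie wholly within an annotated noncoding RNA gene on the opposite strand.

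Ala, Asp and Leu come from the same run of tRNA genes on chromosome III, between chk1, which encodes a DNA damage checkpoint kinase, and ppc1, beside the centromere. Ala is the nearest to chk1, at 600 bp, and has 6 other tRNA genes within 5 kb. Asp is 3585 bp from chk1 and has 7. Ala was enriched at 1.50 ± 0.14, Asp had 0.51 ± 0.54 and Leu gave no ratio, so these features of the same run had different means. The meu27 intergenic feature, whose region of 78420 bp holds the run, had 0.33 and 0.90 on replicates 1 and 3 and no value on replicate 2. The chk1 intergenic feature, at the far end of that gene, was enriched at 0.81 ± 0.24, and that of ppc1, on the other side of the centromere, had 0.24 ± 0.24. The difference between Ala and Asp was not tested.

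Most nuclear tRNA genes have no feature of their own name, but many lie in the region of a feature named for a protein-coding gene. From the start of a gene to the next gene, 140 such features hold a tRNA gene in ASM294v3, and 64 were measured on all arrays. Of these, 31 were enriched (48.4%) and 4 depleted, with a median of 0.65 and a range of -1.75 to 3.56. That share is near the 42% of other intergenic features, a group that includes them. Most regions are at most several kilobases long, but those of yox1 and meu27 span 51487 and 78420 bp. Neither of these features was measured on all arrays. A tRNA gene in a region may lie outside the stretch that was spotted. Some features share the same region, such as those of eaf1 and ptc2, so they are not independent. Some regions, such as those of aah1 and cdr1, hold the gene of a tRNA-named feature, so this group overlaps in place with the tRNA-named one. The share for the tRNA-named features, 8 of 11, was higher, and the difference between these 2 groups was not tested.

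Features of genes that encode the machinery of tRNA transcription and processing were set beside the tRNA-named features. The list held 30 genes for TFIIIC, TFIIIB and RNA polymerase III subunits, the repressor maf1, the La protein, the tRNA exportin los1 and RNase P, and 29 had features. Of 29 intergenic features, 6 were measured, 4 were enriched and none was depleted, with a median of 1.27, beside 42% of other intergenic features enriched. Of these 6, 4 were also enriched with any 1 array left out. The highest was that of tbp1, the TATA-binding protein, with 1.75, 1.74 and 1.33, a mean of 1.61 ± 0.25. The lowest was that of sfc1, a TFIIIC subunit, with -0.19, -0.49 and 0.26, a mean of -0.14 ± 0.37 (adjusted p = 0.70).

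Of the 19 machinery ORFs measured, 11 were depleted and 1 enriched, with a median of -0.76, beside 38.8% of all ORFs depleted and 8.19% enriched. The enriched ORF was rpc19, a subunit shared by RNA polymerases I and III, with 1.11, 0.74 and 0.26, a mean of 0.70 ± 0.43 (adjusted p = 0.041). It was not called without replicate 1 or without replicate 2. The number depleted was 5 of 20 without replicate 1, 7 of 19 without replicate 2 and 10 of 20 without replicate 3.

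The array also names features for 5S rRNA genes, which are transcribed by RNA polymerase III as well, and for 18S rRNA, made by RNA polymerase I. The 5S feature with the label BK00769 had 0.82, 1.07 and 1.48, a mean of 1.12 ± 0.34, and was enriched (adjusted p = 0.0016), and its promoter feature had 1.19, 1.03 and 0.06, a mean of 0.76 ± 0.61 (adjusted p = 0.032). The second 5S feature had 0.76, 0.77 and -0.10, a mean of 0.48 ± 0.50 (adjusted p = 0.17), and its promoter feature was depleted, at -0.74, -0.82 and -1.35, a mean of -0.97 ± 0.33 (adjusted p = 0.0054). The 2 promoter features named for 18S rRNA had 0.36 ± 0.21 and -0.33 ± 0.38 and were not called. Features named for 5S genes thus ran in both directions, as in the plot of feature groups. 5S genes have several copies, so these spots can capture DNA of more than 1 gene.

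Features named for centromere repeats and central regions, chosen after their names were seen, give values at the centromeres that tRNA genes flank. The dg1 repeat was depleted at -0.71 ± 0.06, part of the dhII repeat at -1.35 ± 0.23 and the stretch between dhIIa and dgIIa at -1.02 ± 0.36 (adjusted p = 0.033, 2.5e-04 and 0.0036). The dgII repeat had -0.65 ± 0.27, the dh1 repeat 0.35 ± 0.66 and the central region of cen3 -0.55 ± 0.77, and none of these was called. The central regions cnt1 and cnt3 had values on 1 and 2 arrays, and cnt2 and imr2L on none.

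**Figure D4:**
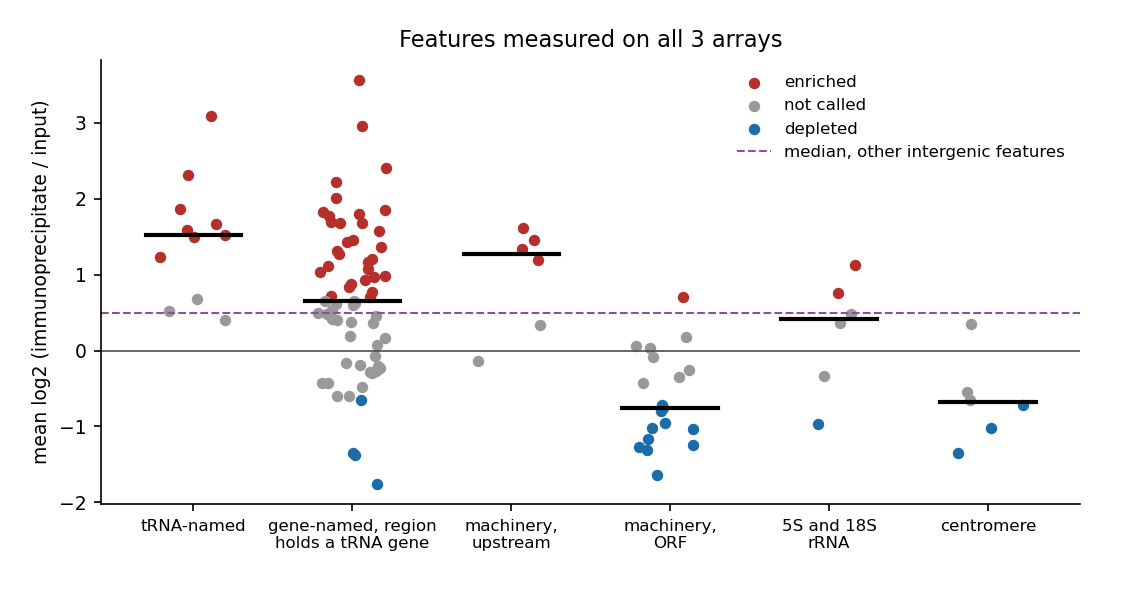
Mean log2 ratio over the 3 arrays (vertical axis) of each feature measured on all of them, by group: tRNA-named features, gene-named features whose region holds a tRNA gene, intergenic and ORF features of the transcription machinery, rRNA features and centromere features. Black bars are group medians (1.52 for tRNA-named features, 0.65 for gene-named regions, 1.27 and -0.76 for the machinery), colours mark the call, and the dashed line is the median of other intergenic features.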

How the data were processed

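Tup12-GFP chromatin was measured on 3 two-colour arrays of intergenic regions and ORFs with 22176 spots each. The authors deposited spot intensities per channel, not normalized between channels; per the labels, slides were quantified with TIGR Spotfinder. The authors' deposited series matrix holds log10 values of a single channel and was used as an alternative. All columns of the files were mapped to a sample. The sources used here do not name the genome build of the array.

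Ratios were log2 of integrated Cy5 over Cy3 intensity for spots not flagged X in either channel, centred on the median of genomic spots of each array (0.52, -0.29 and 0.24 before centring), with repeat spots averaged. Signals per pixel are mean spot intensities. Features with values on all 3 arrays entered limma 3.58.1 in R 4.3.3 (lmFit, then eBayes, for a mean other than 0; p-values adjusted by Benjamini-Hochberg over all these features), after a check on simulated data. Group differences are medians per array with no test. The number of arrays limits the precision. Every measured member may be named; given in full were the 8 highest and the 5 lowest, and for the machinery the extremes and any enriched ORF. Features and lists were chosen with earlier results of these data known. Alternatives changed the centring, background, flags, dim input, source, repeat spots, list limit and replicates.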

Additional observations from a re-analysis of the deposited data

How the results depend on the processing

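The tRNA-named features enriched were 8 to 9 with 1 array left out, and within 1.5 times the reported 8 under the settings not named next. They were 5 of 19 without the filter on flags, where spots with no accepted input enter at a floor. Of the 8, only Tyr and Gly kept the call there. With dim input left out, 4 of 4 were enriched, namely His, Phe, Met and Asn, of which Met and Asn were not called above. Tyr, Gly, Glu, Lys, Cys, Ala and Asp had no value on all arrays under that setting. In the authors' series matrix, a single channel and not a ratio over input, 3 of 12 were called above the array median and 1 below. The recomputed binding list held 3, 2 and 1 of them under the same settings, and 7 to 8 with 1 array left out. The difference from other intergenic features was 0.6818 with centring within blocks, 1.189 with background subtracted again, 1.512 with normexp, 0.4269 without the filter on flags, 0.6921 in the series matrix, 0.5134 at equal input, and 0.776 to 0.9314 with 1 array left out. The difference in immunoprecipitate signal was -0.00092 to 0.2099, and that in input -0.8453 to -0.7624, with 1 array left out. Of 19 to 20 machinery ORFs measured on the same terms, 0 to 1 were enriched and 5 to 10 depleted, and of 8 to 9 intergenic features, more than the 6 with values on all arrays, 6 were enriched; these and the other ranking of spots were chosen after seeing the data. Single means turned below 0 without the filter for Asn (-0.3762), Asp (-0.2617) and Met (-0.09364), and in the series matrix for Lys (-0.8194). Apart from these settings, Phe lost its call with centring within blocks (0.4122, limma adjusted p = 0.0965) and Lys with background subtracted again (1.353, adjusted p = 0.0695), where Glu had no value on all arrays. Repeats with no value on all arrays, among them Tyr and Gly with dim input left out, were not counted. Over the 135 counted repeats of single features, 110 kept direction and call, 12 lost the call, 9 gained it and 4 turned. The causes were not tested. The 2 channels were paired within each array, and no comparison between groups was possible because there is a single group. The limits are the dim input, signal of negative controls in the immunoprecipitate channel, the lack of an untagged strain and of a dye swap, and identical gene copies.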
